A study of Mus musculus with 12 samples.

Results

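The genes described here are 9 markers of the quiescent hepatic stellate cell, namely Lrat, Colec10, Colec11, Ecm1, Reln, Hgf, Lhx2, Ngfr and Hand2. They were taken by symbol from a table of 20143 genes, and each of the 9 matched 1 Ensembl ID. The hepatic stellate cell lies between the hepatocytes and the sinusoidal endothelium and stores vitamin A as retinyl esters. In the injured liver it loses these stores, takes on a contractile and collagen-producing form, and is the main source of scar. The quiescent form is known for retinoid storage, for secreted proteins such as reelin, hepatocyte growth factor and the liver collectins, and for transcription factors that hold its identity.

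Bulk liver RNA was sequenced from 6 Hsd17b13 knockout mice (KO, labelled Hsd17b13-KO) and 6 wild-type mice (WT), each mouse giving 1 library and bearing a number from 1 to 6 within its genotype. All 12 mice, KO and WT, ate CDAA-HFD for 12 weeks, a high-fat diet lacking choline that gives steatohepatitis with fibrosis, and were 8 to 10 weeks old at its start. A group on a normal diet was not analysed here, so every value below is from a diseased liver. The labels give no sex, litter, strain or deletion design, and the tissue was whole liver with no purified stellate cells. Hsd17b13, an enzyme of hepatocyte lipid droplets, was at 1.18 ± 0.181 CPM in KO and 347 ± 36 CPM in WT (SD, n = 6 each), and every library followed its label. CPM are counts scaled to a total of 1000000 per library over the listed genes, and libraries ranged from 46.3 to 77.9 counts for each CPM. KO mice 1 and 3 stood apart from the other KO mice at the ribosomal gene Rplp0. There the pseudogene Gm8730 held 31.4% and 31.6% of the joint signal, against 59.7% to 60.9% in the other 4 KO mice and 7.1% to 8.19% in WT mice. Every KO mouse was thus above every WT mouse in this share, and the source of that difference between the genotypes was not tested. Differences were also computed without KO mice 1 and 3.

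No member passed the test between genotypes, and 3 of the 9 leaned higher in KO liver: Colec10, Lrat and Ecm1. All 9 passed the minimum mean of 1 CPM over the 12 libraries. With limma on log2(CPM + 1), 0 of 9 rose and 0 fell at an adjusted p under 0.05, where 31 of 15648 genes tested were called (0.198%; 16 higher, 0.102%, and 15 lower, 0.0959%). At an unadjusted p under 0.05 there were 3 of 9 higher and 0 lower, compared with 3.62% higher and 7.64% lower over all genes tested. Log2 differences, KO minus WT throughout, were positive in 7 of 9 members with a median of 0.08, against 39.2% positive and a median of -0.03 over all genes. For 0 of the 9 were the groups free of overlap, a state found in 0.32% of all genes with KO above WT and 1.0% with KO below. In Lrat and Colec10, 5 of the KO mice exceeded the highest WT mouse, a pattern that 1.32% of all genes reached with at least 5 KO mice.

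**Figure D1:**
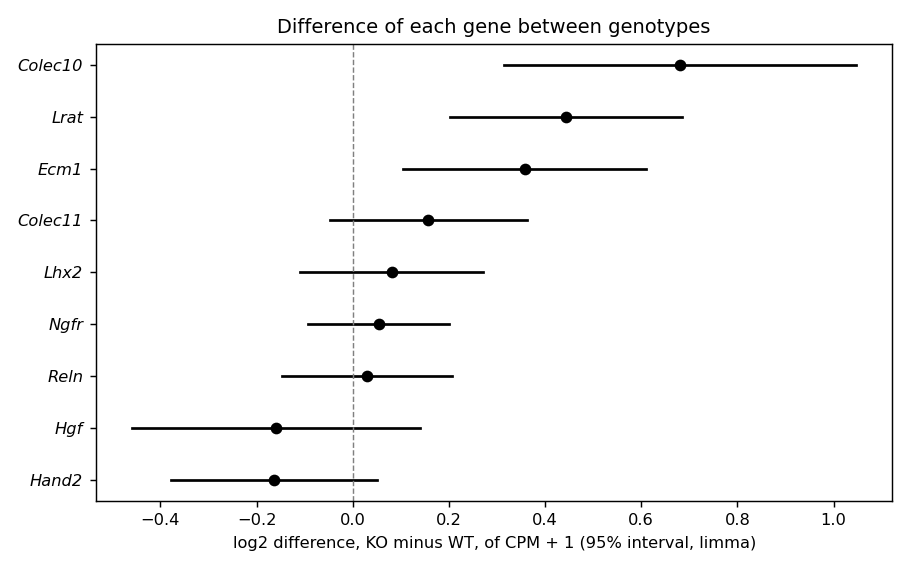
Log2 difference of CPM + 1 between 6 KO and 6 WT livers for each of the 9 genes (points, limma estimate; lines, 95% interval without adjustment). The intervals of Colec10, Lrat and Ecm1 lie above 0 and those of the other 6 genes include 0, while no gene passed the adjusted test.

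**Figure D2:**
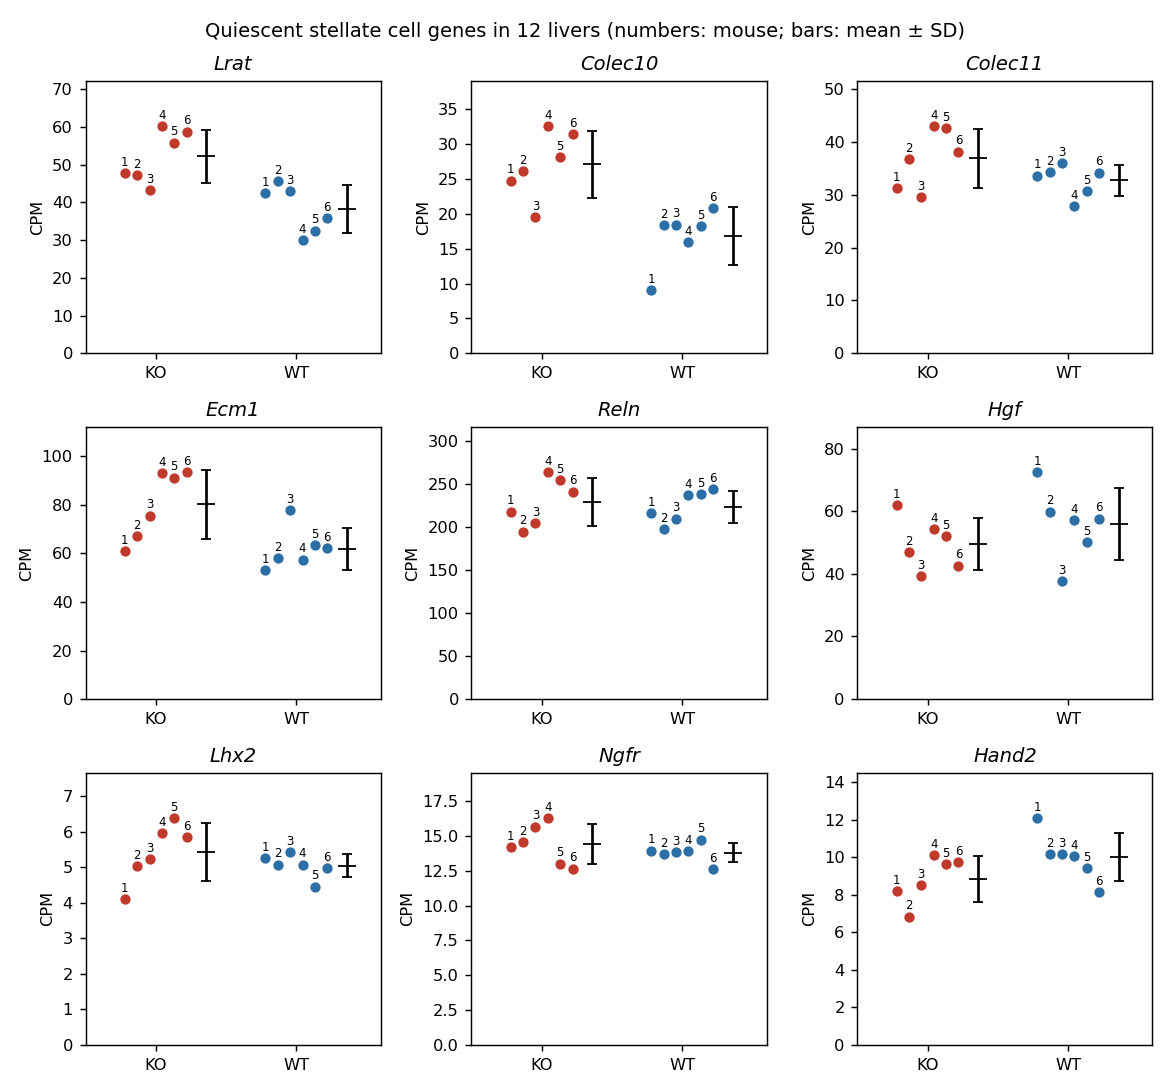
CPM of each of the 9 genes in every liver, KO left and WT right, with the mouse number above each point and mean ± SD beside the points. In Lrat and Colec10, 5 of 6 KO mice lie above every WT mouse, and in Reln, Hgf, Ngfr and Hand2 the groups interleave.

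The promoters of 3 members are shown because they head genes discussed here at length: Lrat and Ecm1, which leaned higher, and Colec11, which followed Lrat from mouse to mouse. Each runs 5′ to 3′ on the gene's own strand from 250 bases before to 50 bases after the start, as given by RefSeq on GRCm38.p6. Lrat is chr3:82903925-82904224, Ecm1 is chr3:95739520-95739819 and Colec11 is chr12:28623281-28623580, all on the minus strand. Capitals mark the GC box GGGCGG in Lrat, the TATA box TATAAA and the AP-1 motif TGANTCA in Ecm1, and the core of the interferon-stimulated response element (ISRE) in Colec11, searched on both strands. Not every match is marked: the 1 GC box of Ecm1 and the E-boxes (CANNTG) of all 3 promoters were left in lower case.
Lrat: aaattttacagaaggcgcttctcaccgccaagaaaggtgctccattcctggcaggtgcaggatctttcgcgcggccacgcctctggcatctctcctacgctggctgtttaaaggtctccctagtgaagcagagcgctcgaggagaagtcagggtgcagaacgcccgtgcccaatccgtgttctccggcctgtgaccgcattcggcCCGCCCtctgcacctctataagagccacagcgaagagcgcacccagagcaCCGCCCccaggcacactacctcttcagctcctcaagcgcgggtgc
Ecm1: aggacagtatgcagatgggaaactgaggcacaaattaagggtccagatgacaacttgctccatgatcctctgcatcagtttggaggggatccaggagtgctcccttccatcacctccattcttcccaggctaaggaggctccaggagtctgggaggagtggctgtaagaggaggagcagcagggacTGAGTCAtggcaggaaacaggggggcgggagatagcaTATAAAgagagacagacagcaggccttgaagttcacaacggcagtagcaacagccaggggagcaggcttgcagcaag
Colec11: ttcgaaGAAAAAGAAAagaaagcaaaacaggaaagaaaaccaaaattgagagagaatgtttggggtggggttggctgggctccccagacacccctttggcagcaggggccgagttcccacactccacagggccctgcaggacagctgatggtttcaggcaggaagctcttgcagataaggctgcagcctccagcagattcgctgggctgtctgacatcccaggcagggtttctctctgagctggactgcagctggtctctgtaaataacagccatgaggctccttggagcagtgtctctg
Promoter entries matched 8 of the 9 members in 10 windows, since Hgf and Lhx2 have 2 starts each. The GC box was in 6 of these 10 windows and in 35.7% of all 32851 windows, the TATA box in 1 and 13.6%, the AP-1 motif in 1 and 7.81%, and the response element core in 1 and 3.44%. The E-box CANNTG, the letters read by helix-loop-helix factors such as HAND2, was in 8 of 10 and in 72.3% of all windows. The nuclear receptor motif AGGTCA was in 0 of 10 and in 16.3%. These matches describe letters in a window and say nothing of binding.

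Lrat encodes lecithin retinol acyltransferase, the enzyme that turns retinol into stored retinyl ester, and in liver it is the defining marker of the stellate cell. It is on chromosome 3 (ENSMUSG00000028003, 82892579 to 82903973, mm10, protein coding). Its level was 47.8, 47.2, 43.3, 60.2, 55.9 and 58.8 CPM in KO mice 1 to 6, against 42.4, 45.7, 43.1, 30.1, 32.5 and 35.9 CPM in WT mice 1 to 6. KO mouse 3 was the only KO mouse within the WT range, and KO mice 4 to 6 were the highest of all 12. The means were 52.2 ± 7.0 CPM in KO and 38.3 ± 6.34 CPM in WT (SD, n = 6 each), a log2 difference of 0.44 (SE 0.11, 95% interval 0.20 to 0.68, limma adjusted p = 0.106). Without KO mice 1 and 3 it was 0.54 (adjusted p = 0.0517).

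Other genes of retinoid storage and release did not lean one way with Lrat. Of 18 listed, 14 were tested, 0 rose or fell, and 9 had positive differences with a median of 0.03 (-0.03 over all genes). Dhrs9, a retinol dehydrogenase, leaned the other way, at 27.5 ± 6.64 CPM in KO and 35.2 ± 5.84 CPM in WT (log2 difference -0.36, SE 0.15, limma adjusted p = 0.347). Rbp4, the plasma carrier by which hepatocytes export retinol, was at 1700 ± 87.7 CPM in KO and 1681 ± 141 CPM in WT (limma adjusted p = 0.964). Dgat1, an acyltransferase that can also esterify retinol, was at 14.5 ± 0.737 CPM in KO and 14.5 ± 1.4 CPM in WT (limma adjusted p = 0.988). Stra6, Pnpla3 and Crabp1 were not analysed here.

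Colec10 and Colec11 encode collectins, secreted lectins with a collagen-like tail that can assemble with each other and start the lectin pathway of complement. Colec10 (ENSMUSG00000038591, chromosome 15, 54410774 to 54466358, mm10) was at 24.8, 26.1, 19.6, 32.5, 28.1 and 31.4 CPM in KO mice 1 to 6, against 9.01, 18.3, 18.4, 16, 18.2 and 20.9 CPM in WT mice 1 to 6. Again KO mouse 3 alone fell inside the WT range, and WT mouse 1 lay far below every other mouse. The means were 27.1 ± 4.74 CPM in KO and 16.8 ± 4.12 CPM in WT, with the largest difference of the 9 members (log2 difference 0.68, SE 0.17, 95% interval 0.31 to 1.05, limma adjusted p = 0.105). Without WT mouse 1 it was 0.52 (adjusted p = 0.0866), and without KO mice 1 and 3 it was 0.81 (adjusted p = 0.051).

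Colec11 (ENSMUSG00000036655, chromosome 12, 28594173 to 28623377, mm10) was at 31.3, 36.7, 29.6, 42.9, 42.6 and 38.2 CPM in KO mice 1 to 6, against 33.6, 34.3, 35.9, 27.9, 30.6 and 34.2 CPM in WT mice 1 to 6. KO mice 2, 4, 5 and 6 were above all WT mice and KO mice 1 and 3 within their range. The log2 difference was 0.16 (SE 0.10, 95% interval -0.05 to 0.36, limma adjusted p = 0.613), and 0.29 without KO mice 1 and 3 (adjusted p = 0.107).

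The balance between both collectins did differ between genotypes. Colec10 over Colec11, a ratio of CPM within a library that no library scaling can move, was 0.791, 0.71, 0.661, 0.758, 0.661 and 0.823 in KO mice 1 to 6, against 0.268, 0.534, 0.514, 0.572, 0.595 and 0.61 in WT mice 1 to 6. All 6 KO mice lay above all 6 WT mice. The ratio was 1.47-fold higher in KO (log2 difference 0.55, SE 0.19). The exact two-sided permutation test gave p = 0.00216, which no split of these 12 mice could undercut (adjusted p = 0.00325 over the 3 ratios tested). Colec10 was known from earlier results to lean further than Colec11 when this pair was chosen, so the p does not stand as independent support. Not all of the ratio's size came from WT mouse 1, since without it the log2 difference was 0.38.

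Partners of the collectins in the lectin pathway had positive differences in 10 of 10 genes tested, of 11 listed, with a median of 0.18 (-0.03 over all genes), and 0 rose. The complement component C2 was at 122 ± 8.91 CPM in KO and 108 ± 5.82 CPM in WT (log2 difference 0.18, limma adjusted p = 0.194). Mbl2, a mannose-binding lectin made by hepatocytes, was at 54.4 ± 6.94 CPM in KO and 44.3 ± 5.74 CPM in WT (0.29, limma adjusted p = 0.22). Masp1, a protease that rides on these lectins, was at 225 ± 22.1 CPM in KO and 198 ± 20 CPM in WT (0.19, limma adjusted p = 0.382). Fcnb was not analysed here.

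Ecm1 encodes extracellular matrix protein 1, a secreted glycoprotein that in mouse liver keeps TGF-beta in its latent, inactive form and is made by hepatocytes as well as stellate cells. Ecm1 (ENSMUSG00000028108, chromosome 3, 95734147 to 95739569, mm10) was at 60.9, 67.2, 75.6, 92.9, 91.2 and 93.4 CPM in KO mice 1 to 6, against 53, 58.1, 78, 57.4, 63.4 and 62.1 CPM in WT mice 1 to 6. KO mice 4, 5 and 6 were above every WT mouse, and WT mouse 3 was above KO mice 1 to 3. The means were 80.2 ± 14.3 CPM in KO and 62.0 ± 8.64 CPM in WT (log2 difference 0.36, SE 0.12, 95% interval 0.11 to 0.61, limma adjusted p = 0.207).

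Genes of latent TGF-beta activation leaned in the other direction from Ecm1. Of 11 tested, 0 had a positive difference and the median was -0.27, with 7 at an unadjusted p under 0.05 and 0 called. Over all genes tested, 39.2% were positive, the median was -0.03 and 7.64% were lower at that unadjusted limma p. Tgfb1, the TGF-beta ligand highest in CPM, hardly differed, at 35.2 ± 4.76 CPM in KO and 37.1 ± 3.78 CPM in WT (log2 difference -0.08, limma adjusted p = 0.862). Tgfb3, a TGF-beta ligand, was at 3.82 ± 0.651 CPM in KO and 7.47 ± 2.41 CPM in WT (log2 difference -0.78, limma adjusted p = 0.0586). Itgb8, the partner of integrin alpha v in releasing the ligand, was at 4.72 ± 1.36 CPM in KO and 11 ± 4.6 CPM in WT (-1.01, limma adjusted p = 0.0829). Tgfb2 was at 3.21 ± 0.552 CPM in KO and 5.89 ± 1.92 CPM in WT (-0.68, limma adjusted p = 0.0895). The cholangiocyte marker list, at a median of -1.09, moved with Tgfb3, Itgb8 and Tgfb2. Its summed level was 19.95 to 37.6 CPM in KO and 41.1 to 93.0 CPM in WT, 0 of its 4 genes were at 0, and 1 of the 4 fell, Krt7 (1.23 ± 0.538 CPM in KO and 3.61 ± 1.3 CPM in WT, limma adjusted p = 0.0495). The part of the cholangiocyte list in the values of Tgfb3, Itgb8 and Tgfb2 was not tested.

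Reln, Hgf and Ngfr, the members that signal to or from neighbouring cells and nerves, did not separate the genotypes. Reelin (Reln, ENSMUSG00000042453, chromosome 5, 21884454 to 22344702, mm10) is a large secreted glycoprotein, known from neuronal positioning and made in the liver by stellate cells. Its level was 218, 195, 204, 263, 254 and 241 CPM in KO mice 1 to 6, against 216, 198, 210, 237, 238 and 244 CPM in WT mice 1 to 6. The ranges lie nearly on top of each other (log2 difference 0.03, SE 0.08, 95% interval -0.15 to 0.21, limma adjusted p = 0.949). Of 7 genes of its pathway 6 were tested, 2 had positive differences, the median was -0.08 and 0 were called. The receptor Vldlr was at 1.87 ± 0.238 CPM in KO and 2.77 ± 1.08 CPM in WT (limma adjusted p = 0.402), and the kinase Fyn at 14.3 ± 1.4 CPM in KO and 12.3 ± 1.18 CPM in WT (limma adjusted p = 0.293).

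Hepatocyte growth factor (Hgf, ENSMUSG00000028864, chromosome 5, 16553495 to 16620152, mm10) drives hepatocyte growth through the receptor Met. Hgf was at 62, 46.9, 39.3, 54.3, 52 and 42.6 CPM in KO mice 1 to 6, against 72.5, 59.9, 37.7, 57.3, 50.1 and 57.6 CPM in WT mice 1 to 6. Both the highest and the lowest value were in WT, at mice 1 and 3 (log2 difference -0.16, SE 0.14, 95% interval -0.46 to 0.14, limma adjusted p = 0.771). The ratio of Hgf to Met within a library differed by -0.18 on the log2 scale (SE 0.16, exact two-sided permutation p = 0.281, adjusted p = 0.281 over 3 ratios). Met itself was at 122 ± 5.91 CPM in KO and 121 ± 10.5 CPM in WT (limma adjusted p = 0.972).

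Of the 11 genes of HGF activation and reception, 6 had positive differences, the median was 0.01 and 0 were called. Those with the smallest p were Spint1, an inhibitor of HGF-activating proteases, at 1.92 ± 0.514 CPM in KO and 4.55 ± 2.31 CPM in WT (log2 difference -0.86, limma adjusted p = 0.0974), and St14, the protease matriptase, at 4.62 ± 1.99 CPM in KO and 9.86 ± 3.64 CPM in WT (-0.96, limma adjusted p = 0.103). Both are epithelial genes, and the cholangiocyte list given above moved with them. Its part in these values was not tested. Hgf and Reln lie on the chromosome of Hsd17b13, but 87.3 and 81.6 Mb away from it. Hgf shares 484 exonic bases with Gm43489 (1.63 CPM over all mice) and Reln 246 with the antisense gene Gm10475 (0.204 CPM), both far below the member's own level.

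Ngfr encodes the low-affinity neurotrophin receptor p75, which stellate cells share with nerve and Schwann cells. Ngfr (ENSMUSG00000000120, chromosome 11, 95568818 to 95587735, mm10) was at 14.2, 14.6, 15.7, 16.3, 13 and 12.7 CPM in KO mice 1 to 6, against 14, 13.7, 13.8, 13.9, 14.7 and 12.6 CPM in WT mice 1 to 6. It varied least of the members within WT, with a coefficient of variation of 4.97%, and its log2 difference was 0.05 (SE 0.07, 95% interval -0.09 to 0.20, limma adjusted p = 0.867). Among 6 neurotrophin genes tested, of 9 listed, 1 had a positive difference, the median was -0.23 and 0 were called. Ntrk3, a high-affinity neurotrophin receptor, had the smallest p at 0.721 ± 0.164 CPM in KO and 1.65 ± 0.469 CPM in WT (log2 difference -0.61, limma adjusted p = 0.0586).

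Lhx2 and Hand2 encode transcription factors of the stellate cell. Lhx2, a LIM homeobox factor whose loss in mice brings stellate activation and liver fibrosis, was the lowest member in CPM. Lhx2 (ENSMUSG00000000247, chromosome 2, 38339281 to 38369733, mm10) was at 4.11, 5.03, 5.22, 5.97, 6.38 and 5.84 CPM in KO mice 1 to 6, against 5.25, 5.07, 5.42, 5.07, 4.45 and 4.98 CPM in WT mice 1 to 6. KO mice held both the highest and the lowest values (log2 difference 0.08, SE 0.09, 95% interval -0.11 to 0.27, limma adjusted p = 0.833). These values stood for at least 233 counts per library, a counting error of at most 6.55%, which is the widest of the 9 members and covers counting only.

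Hand2, a helix-loop-helix factor of mesenchymal cells, was one of 2 members with a negative difference, the other being Hgf. Hand2 (ENSMUSG00000038193, chromosome 8, 57320983 to 57324633, mm10) was at 8.21, 6.84, 8.5, 10.1, 9.62 and 9.73 CPM in KO mice 1 to 6, against 12.1, 10.2, 10.2, 10, 9.42 and 8.13 CPM in WT mice 1 to 6. The groups overlapped in all but 1 KO and 3 WT mice (log2 difference -0.16, SE 0.10, 95% interval -0.38 to 0.05, limma adjusted p = 0.612). Hand2 shares 461 exonic bases with the antisense gene Hand2os1, which ran at a similar level, 6.56 to 16.1 CPM in KO and 8.78 to 18.4 CPM in WT. The strand setting of the counting is unknown here, so the split between both genes is uncertain.

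Other stellate transcription factors, 12 tested of 13, had 6 positive differences, a median of -0.01 and 0 calls. Tcf21 was at 9.29 ± 0.924 CPM in KO and 13.4 ± 3.69 CPM in WT (log2 difference -0.45, limma adjusted p = 0.158). Ets2 was at 76.3 ± 11.3 CPM in KO and 92.5 ± 10.6 CPM in WT (-0.28, limma adjusted p = 0.252). Pparg, known to oppose stellate activation, was at 22.3 ± 1.17 CPM in KO and 20.1 ± 1.08 CPM in WT (0.14, limma adjusted p = 0.29).

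Scaled by exon length, the members spanned a wide range of levels. In KO, Ecm1 led at 31.8 ± 5.66 CPM per kb, followed by Colec11 at 22.7 ± 3.43, Lrat at 9.76 ± 1.31, Reln at 9.65 ± 1.17, Hgf at 6.89 ± 1.15, Colec10 at 5.9 ± 1.03, Ngfr at 4.18 ± 0.415, Hand2 at 3.76 ± 0.521 and Lhx2 at 1.24 ± 0.185. In WT the order in CPM per kb was Ecm1 at 24.6 ± 3.43, Colec11 at 20.2 ± 1.82, Reln at 9.42 ± 0.782, Hgf at 7.77 ± 1.6, Lrat at 7.16 ± 1.19, Hand2 at 4.25 ± 0.547, Ngfr at 4 ± 0.199, Colec10 at 3.66 ± 0.898 and Lhx2 at 1.15 ± 0.0745. Neighbours closer than the larger of their SDs were Lrat and Reln, Hgf and Colec10, and Ngfr and Hand2 in KO, and Hgf and Lrat, Hand2 and Ngfr, and Ngfr and Colec10 in WT. Reln, the highest member in CPM, owes that place to its 23.7 kb of exons. Lengths join all annotated exons of a gene, so they may exceed those of the transcripts present.

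Set against Cygb, a marker of the whole stellate population that itself leaned lower, Lrat was higher in KO liver. Cygb, cytoglobin, is expressed by both quiescent and activated stellate cells, not necessarily at the same level. It was at 28.4 ± 2.99 CPM in KO and 36.4 ± 7.61 CPM in WT (log2 difference -0.33, limma adjusted p = 0.212). Lrat over Cygb within a library was 1.8, 1.91, 1.48, 2.02, 1.68 and 2.2 in KO mice 1 to 6, against 0.826, 1.27, 1.24, 0.87, 1.04 and 1.18 in WT mice 1 to 6, with no overlap. It was 1.74-fold higher in KO (log2 difference 0.80, SE 0.14, exact two-sided permutation p = 0.00216, the smallest possible, adjusted p = 0.00325 over 3 ratios). Lrat was known to lean higher when the pair was chosen and Cygb leaned lower, so the p does not stand as independent support. WT mouse 1 had the highest Cygb, 51.3 CPM against 30.6 to 35.9 CPM in the other WT mice. Without that mouse the log2 difference of the ratio was 0.73. In bulk liver, fewer cells of a type and less RNA per cell cannot be told apart, so neither part of the ratio says how many stellate cells there were.

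Other stellate genes are given beside the 9 members, with no test between lists. Of 14 further quiescent markers 13 were tested, with 5 positive, a median of -0.03, 0 called, and 4 on each side at an unadjusted p under 0.05. Angptl6, a secreted angiopoietin-like protein, was at 7.54 ± 1.49 CPM in KO and 4.66 ± 1.05 CPM in WT (log2 difference 0.60, limma adjusted p = 0.0906). Adamtsl2, a microfibril-binding protein, was at 28.5 ± 4.75 CPM in KO and 47.5 ± 13.1 CPM in WT (-0.70, limma adjusted p = 0.0821). Gfap, often used for quiescent stellate cells in rat, was at 0.482 ± 0.198 CPM in KO and 0.503 ± 0.0839 CPM in WT, under the minimum for testing. All 6 pan-stellate genes had negative differences (median -0.27, 0 called), among them Pdgfrb at 39.8 ± 3.66 CPM in KO and 54.5 ± 7.74 CPM in WT (limma adjusted p = 0.0667). Of 12 activated markers 11 were negative (median -0.41, 0 called, 10 at an unadjusted p under 0.05), with Sox4 (adjusted p = 0.093), Timp1 (0.103) and Lox (0.114) lowest in p by limma. All genes tested had a median of -0.03, with 39.2% positive and 7.64% lower at an unadjusted limma p under 0.05.

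**Figure D3:**
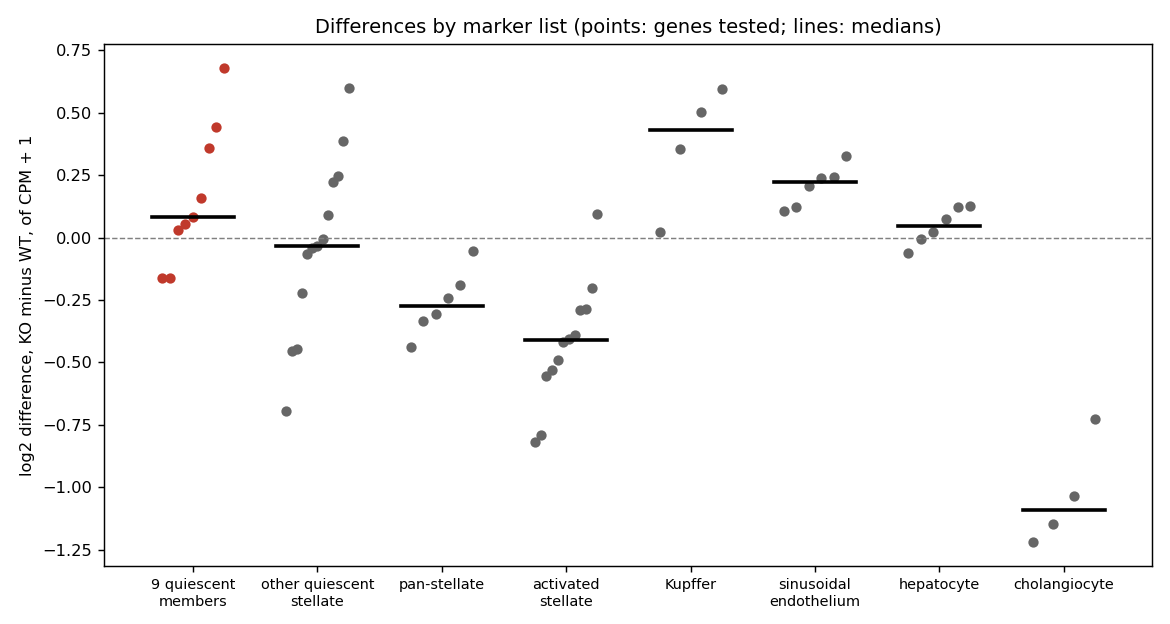
Log2 difference of CPM + 1, KO minus WT, for each tested gene of 8 marker lists (points) with the list median (line). The 9 quiescent members have a median of 0.08 and the pan-stellate and activated lists medians of -0.27 and -0.41, while the Kupffer list has a median of 0.43.

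Markers of cells that lie beside the stellate cell varied as well. Sinusoidal endothelial markers were positive in 6 of 6 (median 0.22, 0 called, summed level 272 to 390 CPM in KO and 267 to 346 CPM in WT). Kupffer cell markers, those of the resident macrophage, were positive in 4 of 4 tested (median 0.43, 0 called), and the 5 listed summed to 304 to 469 CPM in KO and 182 to 322 CPM in WT. The 6 hepatocyte markers had a median of 0.05 with 0 called. Portal fibroblast and mesothelial markers were positive in 1 of 6 tested (median -0.51, 0 called, summed level 25.9 to 36 CPM in KO and 31.6 to 55.9 CPM in WT). The smooth muscle markers Tagln and Myh11 were both negative and not called. None of the listed genes with values had a mean of 0 in either genotype.

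Most members were high together in KO mice 4 to 6, though the 9 did not move as 1 block across all mice. KO mice 4, 5 and 6 had 7, 6 and 5 of the 9 members above every WT mouse, whereas KO mice 1, 2 and 3 had 2, 3 and 1. The share of all genes above every WT mouse was not computed for single mice, so these counts lack a background. The pattern was not particular to the members. The Kupffer gene Cd5l was at 239 to 274 CPM in KO mice 4 to 6 and 204 to 223 CPM in KO mice 1 to 3. Clec4f, another, was at 138 to 149 CPM and 74.5 to 123 CPM. Cygb did not split this way. KO mouse 4 held the highest of all 12 values for 5 members. The summed level of the 9 was 471, 445, 441, 579, 553 and 533 CPM in KO mice 1 to 6, against 458, 443, 452, 454, 461 and 481 CPM in WT mice 1 to 6. The depth of KO mice 4 to 6 was 50.7 to 57.7 counts for each CPM, and the labels name no batch. The part of depth or of an unrecorded batch in this pattern was not tested.

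**Figure D4:**
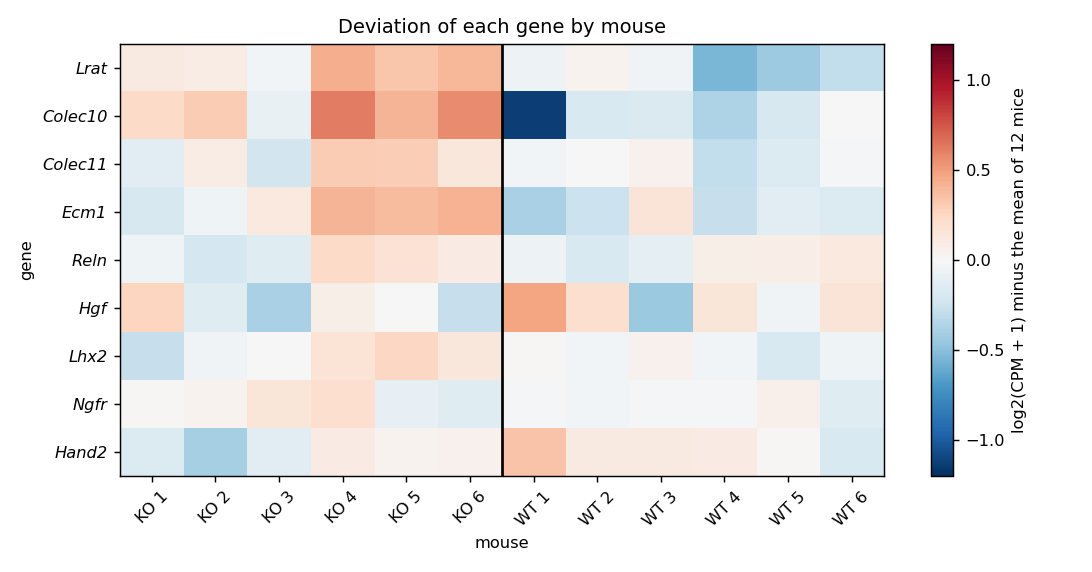
Deviation of each gene's log2(CPM + 1) from its mean over 12 mice, KO mice left of the line and WT mice right of it. KO mice 4 to 6 are above the mean in Lrat, Colec10, Colec11, Ecm1, Reln, Lhx2 and Hand2, and WT mouse 1 is far below it in Colec10.

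Lrat and Colec11 varied together from mouse to mouse. After the genotype mean was removed, Pearson's r over 12 mice was 0.815 (permutation p = 0.00066, adjusted p = 0.00528 over the 8 relations of Lrat to another member) and Spearman's rho was 0.839 (permutation p = 0.00112, adjusted p = 0.00896). Without WT mouse 4 and KO mouse 3, the mice farthest from the median of Lrat, r was 0.682. Within genotypes r was 0.87 among 6 KO mice and 0.867 among 6 WT mice (exact permutation p = 0.0292 and 0.0153, adjusted p = 0.142 and 0.122 over 16). The WT value rested on WT mice 4 and 5, without which r was 0.198, while without KO mice 3 and 4 the KO value was 0.68. Next came Hand2 (r = 0.575, permutation p = 0.0613, adjusted p = 0.163; rho = 0.615, permutation p = 0.0436, adjusted p = 0.116) and Lhx2 (r = 0.57, permutation p = 0.0373, adjusted p = 0.149; rho = 0.65, permutation p = 0.0204, adjusted p = 0.0818). Without the same pair of mice their r was 0.74 and 0.724. The other 5 relations had r from -0.231 to 0.465 and adjusted p of 0.264 or more.

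The genes most like Lrat across the 12 mice were not members. Over all other genes tested, the highest r after removal of the genotype mean belonged to Gm2423 (0.907), Ccbe1 (0.903), which codes for a secreted factor of lymphatic growth, Gm11955 (0.9), Tagln (0.9), a contractile gene of smooth muscle and activated stellate cells, and Mrpl47 (0.9), a mitochondrial ribosomal protein gene. Colec11 ranked 25 in that order, and Colec10 ranked 7127 with r = 0.181 (permutation p = 0.661, adjusted p = 0.803; rho = 0.51, permutation p = 0.106, adjusted p = 0.211). Tagln leaned lower in KO while Lrat leaned higher, at 15 ± 1.39 CPM in KO and 18.7 ± 3.42 CPM in WT (limma adjusted p = 0.286).

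The 5 genes most like Colec10 over 12 mice, after removal of the genotype mean, were Dnajc25 (r = 0.932), Cd5l (0.927), Gm11249 (0.922), Folr2 (0.917), a folate receptor found on resident macrophages, and Clec4f (0.879), a lectin of the Kupffer cell. Cd5l and Clec4f were on the Kupffer list, whose other tested genes were Vsig4 (0.811) and Marco (0.405). Cd5l, an inhibitor of macrophage apoptosis, was at 220, 223, 204, 239, 261 and 274 CPM in KO mice 1 to 6, against 112, 168, 184, 177, 173 and 195 CPM in WT mice 1 to 6. WT mouse 1 was lowest in both Colec10 and Cd5l, and without it and KO mouse 3 the r of Colec10 was 0.667 with Cd5l, 0.861 with Folr2 and 0.658 with Clec4f. These values were picked as the highest among all genes and carry no p, and the part of Kupffer cell RNA in the Colec10 difference was not tested.

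**Figure D5:**
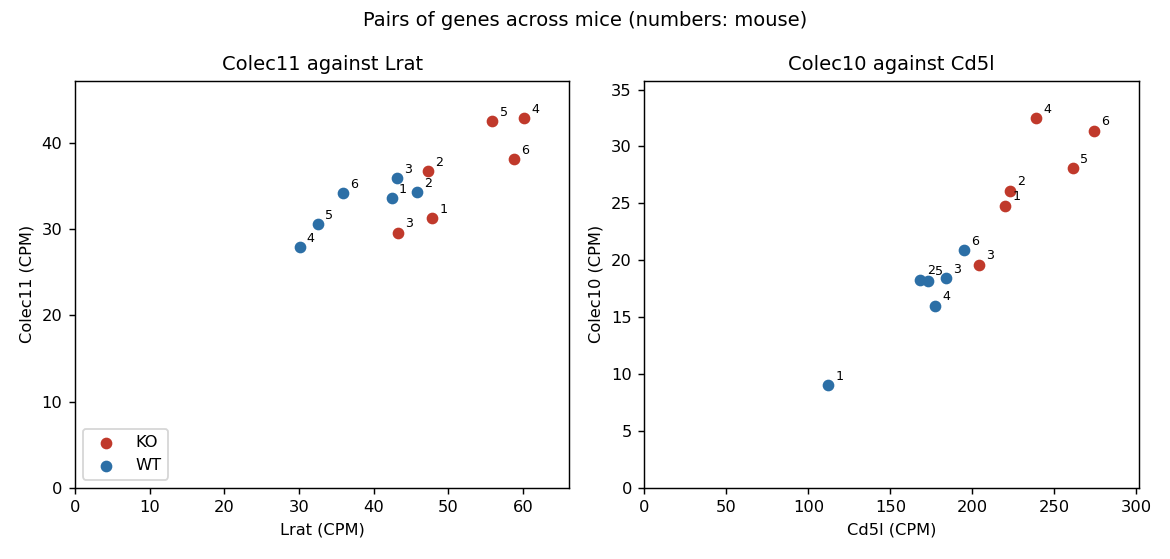
CPM of Colec11 against Lrat (left) and of Colec10 against Cd5l (right) in 6 KO and 6 WT livers, numbered by mouse, with both axes from 0. Colec11 tends to be higher in livers with more Lrat, with exceptions in both genotypes, and in WT the trend rests on mice 4 and 5. WT mouse 1 has the lowest Colec10 (9.01 CPM) and the lowest Cd5l (112 CPM).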

How the data were processed

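The authors deposited 1 table of CPM for 12 liver libraries, with no scaling by gene length: each column sums to 1000000, and 71.1% to 76.4% of low values lay within 0.02 of a whole multiple of 1 step (evenly spread values give 4%). Since the others fell between steps, the CPM could not be turned back into exact reads, and the genotypes were not tested on counts. Counts, counting errors and the chi-square between libraries rest on CPM multiplied by this step and rounded, so they are approximate. By the step, 1 CPM was 46.3 to 77.9 counts. Per the submitters' processing notes, mm10, Partek 10.0, STAR 2.7.3a and DESeq2 1.14.1 were used, with no role given. How reads were assigned to genes, and with which annotation and strand setting, is not given in the sources used. Per the labels' protocols, libraries were rRNA-depleted and directional, while the molecule label names polyA RNA.

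Symbols and positions came from GENCODE vM21 (20055 of 20143 IDs matched). Within a genotype, every pair of libraries differed (chi-square per gene, median 2.81 to 9.72), and each was kept as a separate sample. The design text gives 6 per genotype, read here as 6 mice; no label says how animals were housed or bred, and p-values measure the spread between these samples. The 15648 genes averaging 1 CPM or more were tested with limma 3.58.1 in R 4.3.3 on log2(CPM + 1), with empirical Bayes and a mean trend, two-sided, adjusted by Benjamini-Hochberg over all of them. Such differences understate changes of low genes. Ratios were compared over all 924 assignments of mice, and correlations by 100000 permutations within genotype (exact within 6 mice), in Python 3.11.15. BLASTN 2.17.0 found 0 other genes at least 95% identical over 500 bases for any member.

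The members, lists, ratios and the rule for named genes were chosen with earlier results of these data known. The rule took all members, Hsd17b13, Rplp0 and Gm8730, the genes called or up to 3 with the smallest p in a list, and the 5 genes most like Lrat and most like Colec10. Rbp4, Dgat1, Tgfb1, Met, Cygb, Gfap, Myh11 and Hand2os1 stand outside the rule and were named for their role after their values were seen. Values of some list genes, and the Schwann cell list, are not reported here. The fit was tested on simulated data.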

Additional observations from a re-analysis of the deposited data

Results flagged for a closer look

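The ratio of Colec10 to Colec11 in WT mouse 1 stood far from the other WT mice. Its log2 value was -1.9, against -0.961 to -0.713 in the other 5 WT mice, a gap of 0.791 of the group's range, past the 95% limit of Dixon's test for 6 samples. Colec10 alone also stood apart in that mouse, at 3.323 on the log2(CPM + 1) scale, against 4.08 to 4.45 in the other 5 WT mice (gap 0.675 of the range). Without the log the gap was 0.719 for the ratio, again past the limit, and 0.587 for Colec10, short of it. On the log2 scale these were 2 cases among 24 groups examined (9 members and 3 ratios in each genotype), and chance gives about 1 in 20. In that mouse Colec10 was at 9.01 CPM and Colec11 at 33.6 CPM, with Colec11 near its WT mean of 32.8 CPM. The same mouse had the highest Cygb (51.3 CPM), Hgf (72.5 CPM) and Hand2 (12.1 CPM) of all 12.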

How the results depend on the processing

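No member was called higher or lower in any of the 22 alternatives run. All 22 kept the sign of the difference for Colec10 (0.52 to 0.81, adjusted p from 0.051 to 0.238), Lrat (0.38 to 0.54, 0.0517 to 0.249), Ecm1 (0.31 to 0.47, 0.0625 to 0.417), Colec11 (0.11 to 0.29), Hgf (-0.27 to -0.08) and Ngfr (0.02 to 0.09), as did the 21 that tested Lhx2 (0.04 to 0.17) and Hand2 (-0.22 to -0.10). Single mice weighed on the small differences: Hgf was -0.08 without WT mouse 1, -0.10 without KO mouse 3 and -0.27 without WT mouse 3, and Hand2 was -0.10 without KO mouse 2. Reln changed sign without KO mouse 4 (-0.01), KO mouse 5 (-0.001) or WT mouse 2 (-0.004), within a range of -0.01 to 0.08 with 1 mouse left out. Over all genes, calls moved more. Against 16 higher and 15 lower, there were 10 and 4 among genes averaging 10 CPM or more, 35 and 41 with quantile normalization, 74 and 138 with library weights, and 130 and 62 without KO mice 1 and 3. Calls lower in KO numbered 7 with a pseudocount of 5, 9 without the mean trend and 38 with median-of-ratios scaling, where 24 were higher (38.7% of calls, against 51.6%). Leaving out 1 mouse gave 11 to 34 higher and 4 to 28 lower, the extremes being without WT mouse 3 (11 and 4), KO mouse 3 (34 and 16) and WT mouse 5 (15 and 28). The cause of these shifts was not tested. With a replicate block there were 11 higher and 32 lower. Same-numbered mice had correlations from -0.51 to 0.42 and 2 of 6 KO mice correlated best with the WT mouse of their own number. Such values cannot decide whether the numbers pair the mice, and the labels give no litter or housing. The ratios Colec10 over Colec11 (0.38 to 0.61) and Lrat over Cygb (0.70 to 0.88) had adjusted p of at most 0.0469 in the 18 alternatives that apply to a ratio. Since both pairs were chosen with the direction known and their groups do not overlap, this says nothing about stability. Colec11 was the 1 member correlated with Lrat in each of 17 alternatives. With 6 mice a group, intervals of the members still allow differences as far as -0.46 for Hgf, -0.38 for Hand2 and 0.36 for Colec11. For Lhx2 they reach 0.27, for Reln 0.21 and for Ngfr 0.20.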

Other observations

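Lrat and Reln were related in opposite ways within the genotypes. Among 6 KO mice r was 0.905 (exact permutation p = 0.0403, rho 0.886, exact permutation p = 0.0333), and among 6 WT mice r was -0.88 (exact permutation p = 0.0444, rho -0.771, exact permutation p = 0.103). Neither passed adjustment over the 16 within-genotype relations computed (adjusted p = 0.142 for both r, 0.133 and 0.274 for rho). Without the 2 mice of each genotype farthest from the median of Lrat, r was 0.867 in KO and -0.994 in WT. Whether the relation differs between genotypes was not tested, and the pair was picked after its values were seen.

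Lrat and Colec10 moved together among the 6 KO mice (r = 0.945, exact permutation p = 0.00278, adjusted p = 0.0444; rho = 0.943, exact permutation p = 0.0167, adjusted p = 0.133) and not detectably among the 6 WT mice (r = -0.209, exact permutation p = 0.806, adjusted p = 0.907; rho = 0.314, exact permutation p = 0.564, adjusted p = 0.694). Without KO mice 3 and 4 the KO value was 0.933. Among the same 6 KO mice, r of Colec10 was 0.935 with Clec4f, 0.919 with Folr2 and 0.385 with Marco, so a high r was not particular to Lrat. Without WT mouse 1, r over the remaining mice of both genotypes, after removal of the full genotype mean, was 0.596. The difference between genotypes was not tested, and this pair too was picked after its values were seen.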
